A study of Mus musculus with 19 samples.

Results

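The genes described here encode the immunoproteasome and the machinery that loads peptides onto MHC class I molecules. They are Psmb8, Psmb9, Psmb10, Psme1, Psme2, Tap1, Tap2, Tapbp, B2m and Nlrc5, and every probe set annotated to one of these symbols was taken. Of the 10 genes, 9 had a probe set of their own among the 18193 genes with such probe sets. They held 15 probe sets, of which 11, covering all 9 genes, passed the filter on dim probe sets. Psme2 shares its probe set with Psme2b in the annotation and was not analysed here. The genes were picked because they were lower in treated than in vehicle tumours, so their values against vehicle are a description, with no p-value. The number that limma called in that contrast is printed beside the share for all probe sets and nothing is read from it, whereas the difference between the doses was tested.

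Expression was measured with 1 Affymetrix array in each of 19 medulloblastomas, tumours of the cerebellum driven by Hedgehog signalling. All were Ptch+/-p53-/- mouse tumour cells grown under the skin of nu/nu mice, a strain that has no thymus and so few mature T cells, while macrophages and NK cells remain. The groups were 3 tumours from mice given vehicle, labelled sensitive, 8 tumours from mice given NVP-LDE225 at 40 mg/kg and 8 from mice given 160 mg/kg, both labelled resistant. The age of the mice and the time of sampling are not given in the sources used here. NVP-LDE225 blocks Smoothened, the protein that passes on the Hedgehog signal when Ptch no longer holds it back. Because every treated tumour was labelled resistant and every vehicle tumour sensitive, exposure to the compound and resistance cannot be told apart. In these whole-tumour samples, fewer cells of a type and less RNA per cell cannot be told apart either. Values are MAS5 signals, an intensity scaled separately on each array, with medians of 32.7 to 49.7 per array. Levels of different probe sets are not on a common scale and are not compared. All 13 granule neuron lineage genes listed as markers of the labelled tumour type passed the filter, which asks for 3 arrays only. Zic1 was high in every tumour, at 3232.9 or more, whereas Atoh1 ran from 22.5 through a median of 883 to 1954.3 over the 19 tumours.

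Cells break down most of their proteins in the proteasome, whose cutting sites lie in the subunits Psmb5, Psmb6 and Psmb7. Interferon, above all interferon-gamma, makes cells replace them in newly built particles with Psmb8, Psmb9 and Psmb10, which gives the immunoproteasome, and raises Psme1 and Psme2, the activator that caps it. The resulting peptides are pumped into the endoplasmic reticulum by Tap1 and Tap2, are loaded with the help of tapasin, the product of Tapbp, and reach the surface on class I heavy chains paired with B2m. Nlrc5 switches on the promoters of several of these genes. Medulloblastomas are known to show few class I molecules at their surface.

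Several of these genes lie close together in the genome. Of the 10 genes 5, namely Psmb8, Psmb9, Tap1, Tap2 and Tapbp, were on chromosome 17 of GRCm38.p6, within the MHC. Psmb9, Tap1, Psmb8 and Tap2 followed one another there without another protein-coding gene in between, flanked by the class II genes H2-DMb1 and H2-Ob. Promoter windows from RefSeq, running from 250 bases before to 50 bases after each gene's start, were matched for 8 of the 10. Each window was searched on both strands for 3 letter patterns known from interferon-responsive and MHC promoters. GAAA repeated after 2 free bases, the core of the element that Irf factors bind, was present in 3.43% of all 32817 windows. TTC and GAA with 3 free bases between them, the element of Stat dimers, was present in 8.29%, and ATTGG, the Y box of NF-Y, in 37.4%. Among the 8 genes, 2 held the first, 1 the second and 4 the third, where the Y boxes of Psmb9 and Tap1 are the same bases in overlapping windows. A match of letters is a description and not a binding site.

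To show each kind of match, 4 windows are printed, from genes of peptide cutting, transport and presentation, with matched letters in capitals. The Psmb8 window, chr17:34197945-34198244 on the plus strand, holds the Stat element 97 bases before the start. The Tap1 window, chr17:34187306-34187605 on the plus strand, overlaps the Psmb9 window by 275 bases, because the 2 genes start 226 bases apart on opposite strands, and it holds a Y box. In Psme1, chr14:55578244-55578543 on the plus strand, the Irf core lies just after the start, read from the other strand. The B2m window, chr2:122147437-122147736 on the plus strand, holds the Irf core 139 bases and a Y box 53 bases before the start.
Psmb8: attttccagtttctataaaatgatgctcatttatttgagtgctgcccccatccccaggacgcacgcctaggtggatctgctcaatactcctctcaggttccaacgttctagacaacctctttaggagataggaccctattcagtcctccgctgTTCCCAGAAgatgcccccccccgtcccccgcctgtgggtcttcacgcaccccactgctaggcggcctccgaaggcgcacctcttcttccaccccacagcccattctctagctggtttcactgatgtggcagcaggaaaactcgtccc
Tap1: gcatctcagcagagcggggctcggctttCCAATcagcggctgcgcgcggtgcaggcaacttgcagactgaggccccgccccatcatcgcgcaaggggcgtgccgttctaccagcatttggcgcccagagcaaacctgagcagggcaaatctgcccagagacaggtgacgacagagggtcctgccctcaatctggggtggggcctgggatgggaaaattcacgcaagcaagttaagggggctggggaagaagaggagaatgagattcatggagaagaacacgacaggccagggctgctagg
Psme1: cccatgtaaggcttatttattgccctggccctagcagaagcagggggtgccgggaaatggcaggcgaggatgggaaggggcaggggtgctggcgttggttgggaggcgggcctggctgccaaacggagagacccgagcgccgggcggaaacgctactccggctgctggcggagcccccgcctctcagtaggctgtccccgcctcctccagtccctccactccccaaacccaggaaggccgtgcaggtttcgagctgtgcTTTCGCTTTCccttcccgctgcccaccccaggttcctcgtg
B2m: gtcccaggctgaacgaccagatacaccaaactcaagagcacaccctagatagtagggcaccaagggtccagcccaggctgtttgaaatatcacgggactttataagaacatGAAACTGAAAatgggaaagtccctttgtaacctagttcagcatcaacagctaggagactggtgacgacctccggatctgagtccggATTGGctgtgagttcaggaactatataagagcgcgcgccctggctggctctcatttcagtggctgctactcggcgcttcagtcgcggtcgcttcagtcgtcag

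The catalytic subunits of the immunoproteasome were lower in nearly all treated tumours than in the vehicle tumours. Psmb8, the chymotrypsin-like subunit, had signals of 300.4, 512.4 and 309.4 in the vehicle tumours. Its lowest, median and highest signals were 38.5, 90.95 and 394.4 at 40 mg/kg, and 21.3, 47.8 and 105.7 at 160 mg/kg. The 8 tumours at 160 mg/kg and 6 of the 8 at 40 mg/kg lay below every vehicle tumour, and 40 mg/kg tumours 6 and 8, at 379.4 and 394.4, lay inside the vehicle range. On the log2 scale, after adding a pseudocount of 2.5 to every signal, the mean of both doses minus vehicle was -2.19 (SE 0.53), a signal 4.56-fold lower. That was the largest difference among the 11 probe sets.

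Psmb9, the subunit next to Tap1, had signals of 114.6, 217.2 and 111.7 in the vehicle tumours. At 40 mg/kg its signals ran from 35.1 through a median of 58.4 to 184.1, and at 160 mg/kg from 9.1 through 38.15 to 66.2. Tumours 6 and 8 at 40 mg/kg, with 184.1 and 137.4, were again the only treated tumours inside the vehicle range. The difference of the treated from the vehicle tumours was -1.56 (SE 0.45) on the log2 scale. Psmb10, the trypsin-like subunit, which lies on another chromosome, had 301.6, 395.6 and 348.1 in the vehicle tumours. Its signals were 76 to 245.7 with a median of 144.6 at 40 mg/kg, and 64.3 to 138.8 with a median of 115.5 at 160 mg/kg. Here the groups did not overlap, since all 16 treated tumours were below all 3 vehicle tumours, and the log2 difference was -1.45 (SE 0.26).

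Psme1, the alpha subunit of the activator, had a smaller log2 difference. It had 923.5, 1123.7 and 1017 in the vehicle tumours, 478.5 to 968.3 with a median of 569.4 at 40 mg/kg, and 451.6 to 623.2 with a median of 532.3 at 160 mg/kg. Tumours 6 and 8 at 40 mg/kg, at 968.3 and 963.3, were above the lowest vehicle tumour and the other 14 treated tumours were below it. The log2 difference was -0.80 (SE 0.18), a signal 1.75-fold lower in treated than in vehicle tumours.

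The transporter genes were also lower in most treated tumours than in the vehicle tumours. Tap1 had signals of 45.5, 84.4 and 62.6 in the vehicle tumours. At 40 mg/kg it had 23.4 to 73.8 with a median of 32.4, and at 160 mg/kg 5.3 to 31.3 with a median of 18.05. Tumours 4, 6 and 8 at 40 mg/kg, at 47.6, 58.8 and 73.8, overlapped the vehicle tumours, and the log2 difference of treated from vehicle tumours was -1.27 (SE 0.37). Tap2, its partner in the pump, had 78.9, 128.2 and 100.3 in the vehicle tumours, 27.4 to 103.6 with a median of 38.05 at 40 mg/kg, and 14.8 to 45.7 with a median of 38.8 at 160 mg/kg. The 2 dose medians of Tap2 were thus nearly the same, and tumours 6 and 8 at 40 mg/kg were the treated tumours that reached the vehicle range. Its log2 difference from vehicle was -1.30 (SE 0.34).

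Tapasin, which holds empty class I molecules at the pump, was read by 2 probe sets. The brighter had 300.2, 320.7 and 333.2 in the vehicle tumours, 123.5 to 260.2 with a median of 141.6 at 40 mg/kg, and 79.7 to 159.5 with a median of 118.4 at 160 mg/kg. The dimmer had 94.6, 102.3 and 94.7 in the vehicle tumours, 26 to 86.4 with a median of 49.2 at 40 mg/kg, and 9.4 to 49.4 with a median of 36.6 at 160 mg/kg. In both, all 16 treated tumours were below all vehicle tumours, with log2 differences of -1.18 (SE 0.20) and -1.28 (SE 0.35).

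B2m, the light chain shared by all class I molecules, also had 2 probe sets. In the brighter the vehicle tumours had 2637.4, 3630.9 and 3462.6, the 40 mg/kg tumours 1504.1 to 3939.8 with a median of 2158, and the 160 mg/kg tumours 1060.7 to 1975.2 with a median of 1611. The highest signal of the 19 tumours was in 40 mg/kg tumour 6, not in a vehicle tumour. In the dimmer the vehicle tumours had 1922.1, 2910.7 and 2000.3, the 40 mg/kg tumours 1002.6 to 2936.4 with a median of 1523, and the 160 mg/kg tumours 729 to 1366 with a median of 1075. The probe sets gave log2 differences of treated from vehicle tumours of -0.76 (SE 0.21) and -0.77 (SE 0.23), and in each, 40 mg/kg tumours 6 and 8 alone among the treated lay in or above the vehicle range. These were the smallest differences among the 11 probe sets.

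Nlrc5, the class I transactivator, had 83.8, 112 and 113.2 in the vehicle tumours. It had 27.4 to 115.5 with a median of 50 at 40 mg/kg, and 13.7 to 56.6 with a median of 23.6 at 160 mg/kg. Tumour 6 at 40 mg/kg, at 115.5, exceeded all vehicle tumours, tumour 4 at 83.1 came just under the lowest of them, and the log2 difference of treated from vehicle tumours was -1.38 (SE 0.36).

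**Figure D1:**
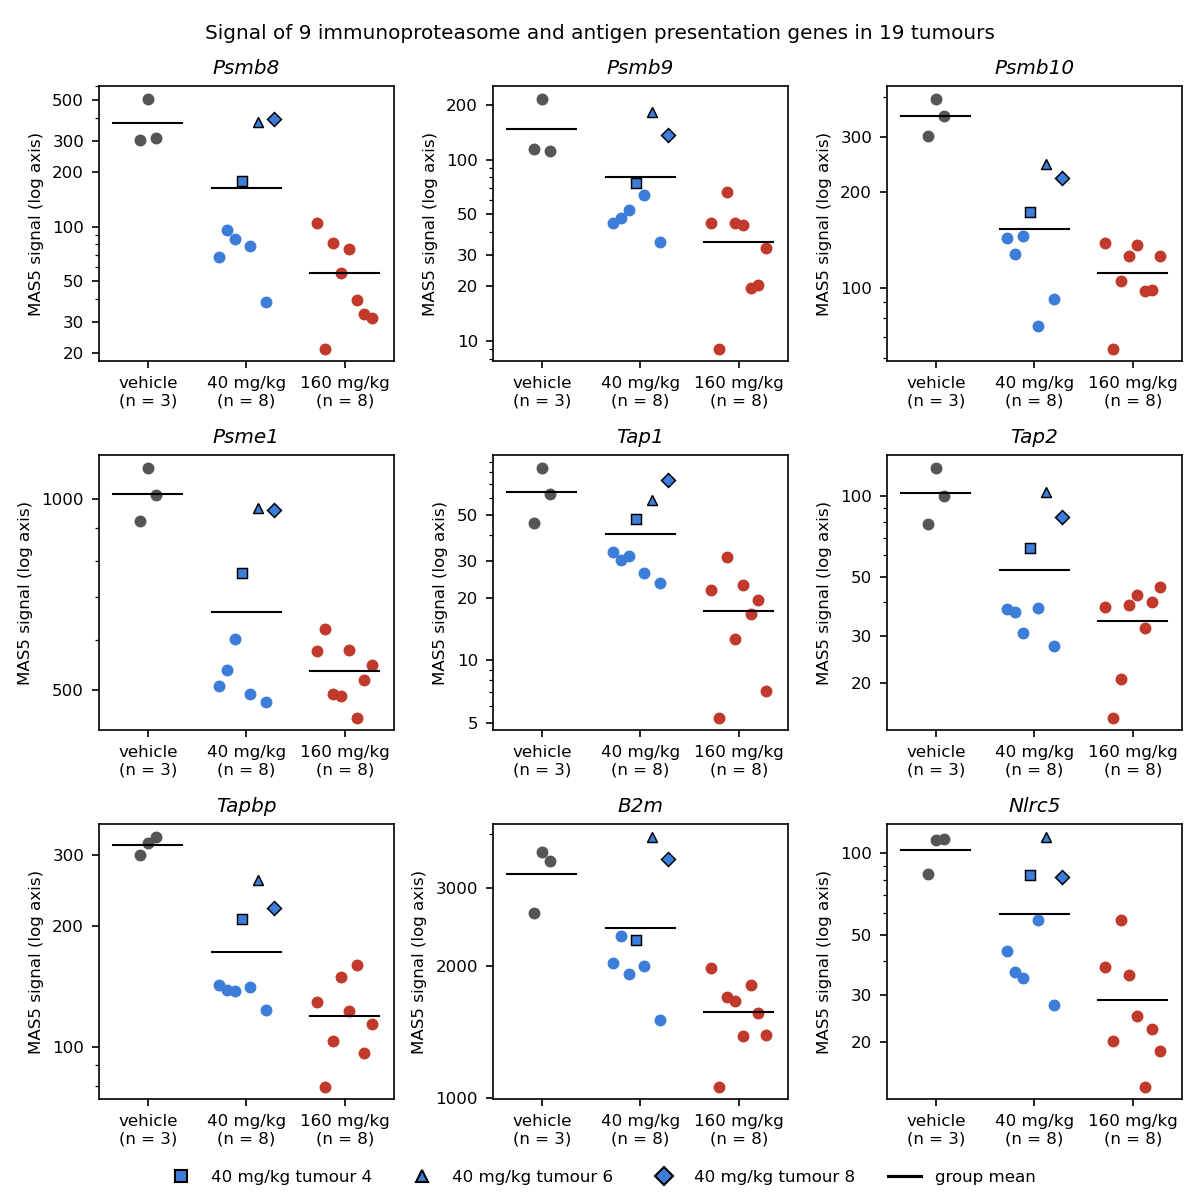
Signal of each gene in each of the 19 tumours (log axis, one panel per gene, the brighter probe set where there are 2), with vehicle (n = 3), 40 mg/kg (n = 8) and 160 mg/kg (n = 8) from left to right and group means as lines. All 8 tumours at 160 mg/kg lay below every vehicle tumour in every panel, whereas 40 mg/kg tumours 4, 6 and 8, drawn with their own symbols, lay above every 160 mg/kg tumour. Neither pattern was counted over all probe sets.

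The filter removed 4 probe sets. A second Psmb8 probe set had 44.7, 43.2 and 12.3 in the vehicle tumours, 2.6 to 18.6 at 40 mg/kg and 1.3 to 12.7 at 160 mg/kg. The other 3 were Tap1 probe sets with medians at or below 8.85 in both dose groups. They carry little information on Tap1 and are not used further.

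Counted over the 11 probe sets that passed, 8 of them, from 7 genes, were called lower in the treated than in the vehicle tumours by limma at an adjusted p under 0.05, against 1.83% of all 31143 probe sets tested, or 4.47% in either direction. Psmb9, Tap1 and 1 B2m probe set were not called. The median log2 difference was -1.28 over the 11 and -0.06 over all probe sets. In 3 of the 11, Psmb10 and both Tapbp probe sets, all treated tumours lay below all vehicle tumours, which held for 2.01% of all probe sets. The genes were chosen on this contrast and passed the filter partly through their high vehicle values, so nothing is read from these counts. Leaving out any 1 of the 3 vehicle tumours lowered the 8 calls to 2. With array medians subtracted 4 of the 11 were called, and with both doses fitted as a single group against vehicle 5 were.

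The direction against vehicle was shared by both dose groups, which use the same vehicle tumours. As mean ± SD, Psmb8 was at 374.1 ± 119.9 in the 3 vehicle tumours, 165 ± 142.8 in the 8 tumours at 40 mg/kg and 55.55 ± 29.55 in those at 160 mg/kg. On the same basis Nlrc5 was at 103 ± 16.64 in the 3 vehicle tumours, 59.81 ± 30.77 in the 8 tumours at 40 mg/kg and 28.69 ± 13.96 in those at 160 mg/kg. The spread was widest relative to the mean at 40 mg/kg for Psmb8, where 2 tumours had vehicle-like signals. Psmb8 differed from vehicle by -1.56 at 40 mg/kg and by -2.82 at 160 mg/kg on the log2 scale, and Tap1 by -0.68 and -1.86. B2m, by its brighter probe set, differed by -0.47 and -1.06, and Psme1 by -0.67 and -0.93. The mean log2 level of each of the 11 probe sets was thus ordered vehicle, 40 mg/kg, 160 mg/kg from high to low.

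The step between the doses was tested, since the means it compares use no vehicle tumour. The vehicle tumours do enter the shared estimate of the spread and the filter. The step did not pass the threshold for any of the 11 probe sets. All 11 were lower at 160 than at 40 mg/kg, with a median log2 difference of -0.59 against -0.02 over all probe sets, and 0 were called by limma. Of all 31143 probe sets 0 were called and 2122 had an unadjusted p under 0.05. Psmb8 was lower at 160 than at 40 mg/kg by a log2 difference of -1.27 (SE 0.42, adjusted p = 0.664 by limma). For Tap1 the difference was -1.18 (SE 0.30, adjusted p = 0.64), for Psmb9 -1.10 (SE 0.36, adjusted p = 0.649) and for Nlrc5 -0.96 (SE 0.29, adjusted p = 0.644). B2m differed by -0.59 (SE 0.17) and -0.65 (SE 0.19), both with an adjusted p of 0.64. Psmb10, Psme1, Tap2 and both Tapbp probe sets differed by between -0.54 and -0.26. At an unadjusted p under 0.05, 7 of the 11 were lower at 160 mg/kg, against 4.04% of all probe sets. In 0 of the 11 did all tumours at 160 mg/kg lie below all tumours at 40 mg/kg, which occurred in 0.00963% of all probe sets. Without 40 mg/kg tumours 6 and 8 the dose difference of Psmb8 was -0.72, that of Psmb10 -0.16, that of Tap2 -0.21 and that of Psme1 -0.06, and all 11 stayed negative.

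The overlap between the doses involved much the same tumours across the probe sets. In all 11 probe sets, 40 mg/kg tumours 4, 6 and 8 were above every tumour at 160 mg/kg. They were the highest 3 tumours of their dose in 10 of the 11, with the brighter B2m probe set as the exception, where tumour 2 at 2331.1 edged out tumour 4 at 2289.3. Tumour 6 was the highest of its dose in 9 probe sets and tumour 8 in the 2 others, Psmb8 and Tap1. At the other end, 160 mg/kg tumour 2 was the lowest of its dose in 8 of the 11. The share of all probe sets with these patterns was not counted. The 9 genes also followed one another across treated tumours, so the 11 probe sets are not 11 separate observations. These counts are a description, and nothing is read from them. Averaged over the 9 genes relative to the vehicle mean, the log2 level was 0.00 in 40 mg/kg tumour 6, -0.15 in tumour 8 and -0.63 in tumour 4. In the other 5 tumours at 40 mg/kg it was between -1.71 and -1.24, and at 160 mg/kg between -2.45 in tumour 2 and -1.29 in tumour 1. The 3 vehicle tumours themselves were at -0.26, 0.28 and -0.03, so tumours 6 and 8 lay within their spread and tumour 4 below it.

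**Figure D2:**
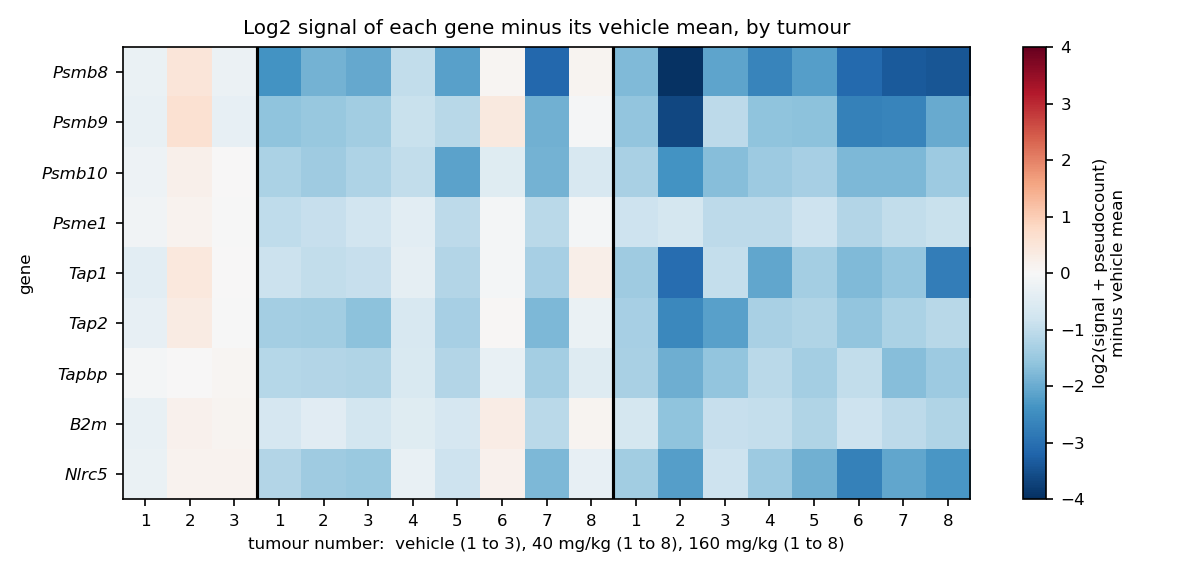
Log2 signal plus pseudocount of each of the 9 genes minus its vehicle mean (colour, blue below and red above), with the tumours of the vehicle, 40 mg/kg and 160 mg/kg groups as columns from left to right. The columns of 40 mg/kg tumours 6 and 8 are near white, with 9-gene means of 0.00 and -0.15, and that of 160 mg/kg tumour 2 is the darkest, at -2.45.

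The constitutive subunits whose places the immunoproteasome subunits take were not called lower. Psmb5 had 1204.2, 1302.1 and 1082.8 in the vehicle tumours, 1087.5 to 1309.3 at 40 mg/kg and 1113.5 to 1492.4 at 160 mg/kg. By limma the treated minus vehicle log2 difference was 0.05 for Psmb5 (adjusted p = 0.731, with a negative sign when vehicle tumour 3 was left out), 0.35 for Psmb6 (adjusted p = 0.0887) and 0.30 for Psmb7 (adjusted p = 0.189). At an unadjusted p under 0.05 by limma, 2 of the 3, Psmb6 and Psmb7, were higher in treated than in vehicle tumours. Of all genes 23.3% passed that threshold in either direction. Setting each inducible subunit against its partner within the same tumour removes any scaling of the array, while a difference of the partner itself enters the result. The log2 difference of Psmb8 minus Psmb5, set to 0 at the vehicle mean, ran from -0.28 to 0.37 in the vehicle tumours. Its median was -1.85 at 40 mg/kg and -2.96 at 160 mg/kg, and 14 of 16 treated tumours lay below all vehicle tumours, the exceptions being 40 mg/kg tumours 6 at -0.07 and 8 at 0.15. Psmb9 minus Psmb6 gave medians of -1.49 at 40 mg/kg and -2.23 at 160 mg/kg, with the same 2 exceptions. Psmb10 minus Psmb7 gave -1.33 at 40 mg/kg and -1.87 at 160 mg/kg, and all 16 treated tumours were below the vehicle tumours. The inducible subunits were chosen because they were lower against vehicle, and no share over all probe sets stands beside these counts. The counts are therefore a description, and nothing is read from them. In 40 mg/kg tumour 6 the Psmb10 difference was -0.65, so the subunits were not equally close to the vehicle level there.

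**Figure D3:**
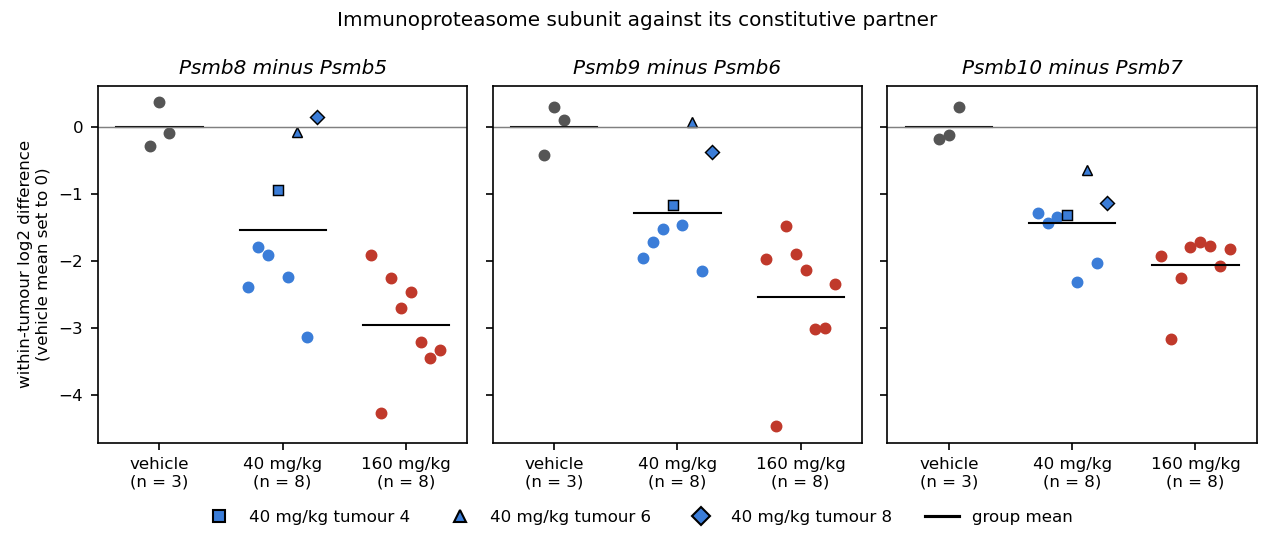
Within-tumour log2 difference of each immunoproteasome subunit minus the constitutive subunit it replaces (vehicle mean set to 0), for vehicle, 40 mg/kg and 160 mg/kg from left to right with group means as lines. Tumours 6 and 8 at 40 mg/kg lay among the vehicle tumours for Psmb8 and Psmb9 and below them for Psmb10.

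The rest of the proteasome gave no calls. Of the 11 other core subunits and of the 28 measured genes of the regulatory cap, other activators and assembly factors, 0 were called in either direction, against 2.45% of all 13454 genes called lower and 2.84% called higher. Their median log2 differences of treated from vehicle tumours were 0.03 and 0.05, within a range from -0.29 for the assembly factor Psmg4 to 0.25 for the cap ATPase Psmc1. At an unadjusted p under 0.05, 0 of the 11 and 0 of the 28 differed between treated and vehicle tumours, against 23.3% of all genes. For 160 against 40 mg/kg limma called 0 of them, while 2 of the 11 and 4 of the 28 had an unadjusted p under 0.05, against 7.41% of all genes, each higher at 160 mg/kg. Of the core genes Psma3 differed there by 0.19 (adjusted p = 0.673), and among the 3 constitutive catalytic subunits Psmb5 at 0.14 (adjusted p = 0.711) and Psmb7 at 0.24 (adjusted p = 0.696) also had an unadjusted p under 0.05. Signals of the core genes were high in every tumour, for example 2724.1 to 4477.6 for Psma3.

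Some class I heavy chains, the partners of B2m, were called lower too. The gene lists here and below were chosen with earlier results of these data known. Their calls against vehicle are therefore not independent evidence. Of 8 measured heavy-chain genes 3 fell by limma and 0 rose, against 2.45% of all genes called lower, with a median log2 difference of -0.70 between treated and vehicle tumours. They were H2-D1, a classical class I chain, at -0.86 (adjusted p = 0.012), H2-M3, which presents bacterial formyl peptides, at -0.95 (adjusted p = 0.0202), and Mr1, which presents vitamin B metabolites to MAIT cells, at -1.52 (adjusted p = 0.0473). H2-K1, the other classical chain, differed by -0.90 without being called (adjusted p = 0.0802). Tumour 6 at 40 mg/kg had the highest signal of all 19 tumours for H2-D1 and for H2-K1, at 1190.4 and 1046.1. Heavy-chain probe sets can read near-identical family members, so the split between H2-D1 and H2-K1 is uncertain, and 13 of the 21 genes listed were not measured.

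Among the other genes of peptide trimming and loading, 2 of 10 measured genes fell and 0 rose, where 2.45% of all genes were called lower. They were Erap1, the aminopeptidase that trims peptides in the endoplasmic reticulum, at a log2 difference of -1.73 (adjusted p = 0.00517 by limma), and Tapbpl, a relative of tapasin that edits peptides, at -1.66 (adjusted p = 0.0255). The general chaperone Canx differed by 0.20 (adjusted p = 0.1) and Hsp90b1 by 0.16 (adjusted p = 0.234), and the median of the list was 0.13.

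Class II genes gave no calls. Of 10 measured genes 0 were called by limma in either direction, 1 had an unadjusted p under 0.05, and the median log2 difference was -0.02. Of all genes 2.45% were called lower and 2.84% higher, and 23.3% had an unadjusted p under 0.05. At these shares 0 calls in a list this short say little. Ciita, the class II transactivator and the counterpart of Nlrc5, differed by -0.19 (SE 0.41, adjusted p = 0.823 by limma), a difference whose sign turned when vehicle tumour 3 was left out. The shared promoter factors of class I and class II genes are the RFX, NF-Y and CREB families. They gave 0 calls among 7 measured genes, 1 unadjusted p under 0.05 and a median of -0.08, beside the same shares. Rfx5 differed by -0.28 (adjusted p = 0.306) and Nfyc by -0.24 (adjusted p = 0.073).

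Genes upstream of the immunoproteasome in the interferon pathway were called in part. Of 17 measured receptor, Jak, Stat, Irf and Socs genes 4 fell and 0 rose, with a median of -0.25, beside a share of 2.45% called lower over all genes. Irf9, the DNA-binding partner of Stat dimers in the type I response, had a log2 difference of -1.05 (adjusted p = 0.00542), and Irf1, which induces Psmb9, Tap1 and other class I pathway genes, of -1.06 (adjusted p = 0.0106). Irf7, the factor that amplifies type I interferon production, was at -1.15 (adjusted p = 0.0286) and Socs3, a feedback inhibitor of Jak signalling, at -0.67 (adjusted p = 0.0457). Ifng itself had a median signal of 1.5 over the 19 tumours and Ifnb1 of 15.1, and neither passed the filter.

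Other genes induced by interferon were also called lower, in lists likewise chosen with earlier results of these data known. Of 14 measured interferon-gamma induced GTPases and chemokines 6 fell and 0 rose, against 2.45% of all genes called lower, with a median of -1.46. The guanylate-binding protein genes Gbp7 and Gbp3 had log2 differences of -2.12 (adjusted p = 0.00345) and -2.06 (adjusted p = 0.0121), and the immunity-related GTPase genes Irgm1 and Iigp1 of -1.70 (adjusted p = 0.00895) and -1.61 (adjusted p = 0.0295). In the ISG15 system, which tags proteins with a ubiquitin-like modifier, 2 of 5 measured genes fell, against the same 2.45% of all genes, the ligase gene Herc6 at -1.83 (adjusted p = 0.0131) and the protease gene Usp18 at -2.13 (adjusted p = 0.0234). Ifit1, a type I interferon marker, had 482.6, 759.9 and 580.2 in the vehicle tumours, 376.5 and 338.3 in 40 mg/kg tumours 6 and 8, and 43.7 to 106.3 in the other 40 mg/kg tumours. At 160 mg/kg it had 18.8 to 177. For Ifit1, 40 mg/kg tumour 4, at 106.3, was thus not above every 160 mg/kg tumour. For 160 against 40 mg/kg 0 genes of any list were called by limma, and at an unadjusted p under 0.05 the interferon-gamma induced list had 6 of its 14 genes and the heavy chains 3 of 8, each lower at 160 mg/kg, beside the 7.41% of all genes under that threshold in either direction. Of the 15 genes named as fallen in these lists, Gbp7 and Erap1 kept the call whichever of the 19 arrays was left out, and H2-M3, Mr1, Tapbpl, Irf1, Socs3 and Usp18 lost it without any 1 of the 3 vehicle tumours. H2-D1, Irf7, Irgm1, Gbp3, Iigp1 and Herc6 lost the call without vehicle tumour 2 and without vehicle tumour 3, and Irf9 without tumour 3. Mr1 and Socs3 kept it in 8 of the 19 fits that leave out 1 array and lost it with array medians subtracted, with no filter and with no variance trend, Socs3 also with both doses fitted as a single group, and Erap1 without vehicle tumour 3 and 160 mg/kg tumour 2 together.

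**Figure D4:**
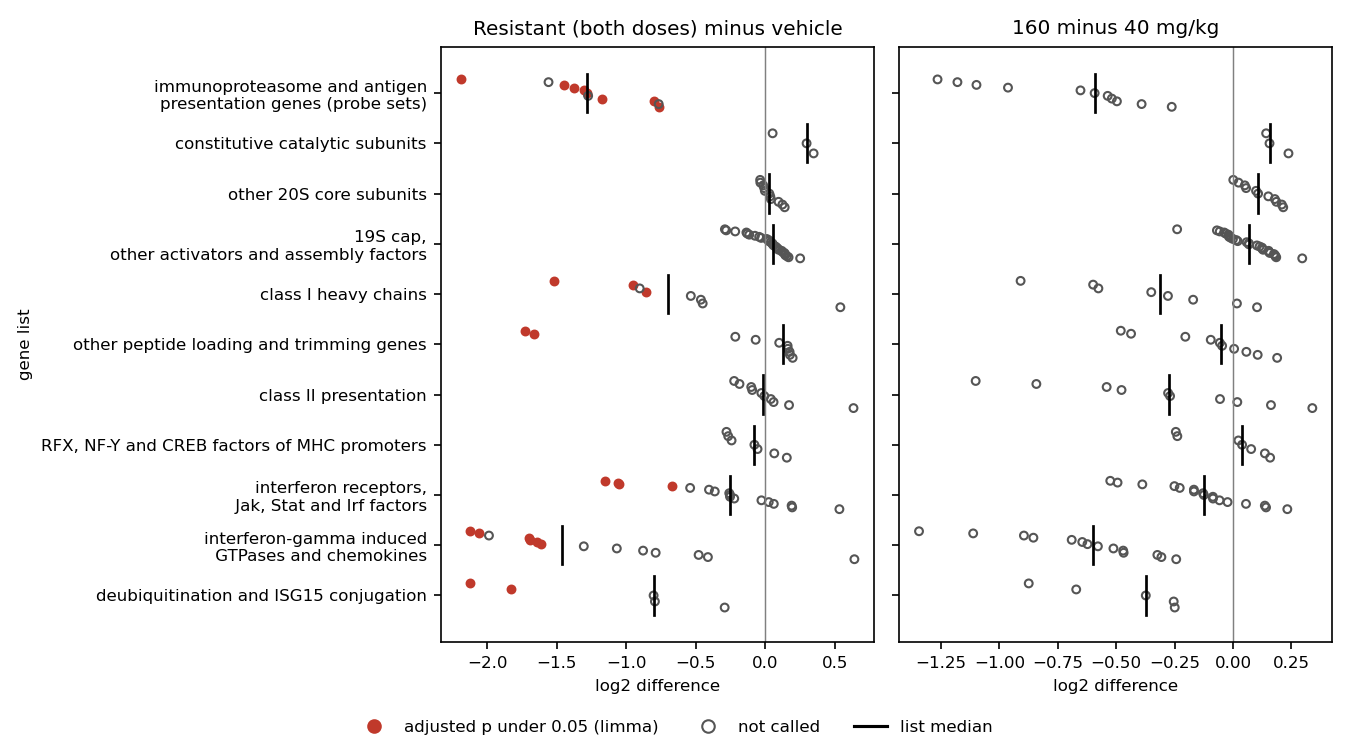
Log2 difference of each measured gene by list, for treated (resistant) minus vehicle tumours on the left and 160 minus 40 mg/kg on the right, with filled points for an adjusted p under 0.05 and a bar at each list's median. The immunoproteasome and antigen presentation genes (top row, 11 probe sets, median -1.28) and 13 of 14 interferon-gamma induced genes (median -1.46) lie left of 0 in the left panel. There the 3 constitutive catalytic genes lie right of 0 (median 0.30) and the core and cap genes around 0. No point is filled in the right panel. The genes of the top row were chosen on the left contrast, so nothing is read from their filled points there.

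Genes that followed these 9 most closely across treated tumours were sought over all 13454 genes, after each dose mean had been removed, as a description over 16 tumours that share their arrays and their tumour 6 and 8 values. The 8 genes outside the set with the highest Pearson correlation with the mean of the 9 had r between 0.850 and 0.936. Nmi, an interferon-induced Stat-interacting protein, had r = 0.936 and Spearman's rho = 0.903. It was followed by Parp9 (r = 0.891), Ifi35 (r = 0.883), Etfa (r = 0.881), Irf1 (r = 0.871), Ddx60 (r = 0.866), Dtx3l (r = 0.863) and Helz2 (r = 0.850). Without 40 mg/kg tumours 6 and 8 the correlations of the 8 were 0.721 to 0.907, and 4 of them were still among the top 8. Nmi had 327.6, 428.3 and 334.3 in the vehicle tumours, 75.1 to 238.2 at 40 mg/kg and 47.3 to 136.2 at 160 mg/kg, without overlap of treated and vehicle tumours. Etfa, a mitochondrial electron carrier gene, followed the 9 genes among treated tumours but differed little from vehicle, by -0.22 (SE 0.09, adjusted p = 0.18 by limma). Among the 9 genes themselves, Psmb8 ranked 1 of all genes by its correlation with their mean (r = 0.977), and Psme1 ranked lowest at 71 (r = 0.727), although each gene is part of that mean.

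Markers of host cells that express these genes strongly were set beside the result. Between treated and vehicle tumours, 2.45% of all genes were called lower and 2.84% higher, and 23.3% had an unadjusted p under 0.05. At these shares, 0 calls in lists as short as those below say little about the cells. Of 16 measured macrophage and microglia markers 0 were called by limma and 0 had an unadjusted p under 0.05. Their median log2 difference between treated and vehicle tumours was 0.17. Their summed signal was 1387 to 2143 in the vehicle tumours, 1019 to 3632 at 40 mg/kg and 889 to 7720 at 160 mg/kg. Bright probe sets, such as that of Lyz2 at up to 1863.7, weigh most in this sum, while that of Cd14 reached 68.7. The sums given here therefore do not weigh the markers of a list equally. The macrophage sum was 1019 in 40 mg/kg tumour 4, 2780 in tumour 6 and 1693 in tumour 8. It was highest in 160 mg/kg tumour 6, where Psmb8 was 39.6. The 2780 of 40 mg/kg tumour 6 was above all vehicle tumours. The part of macrophages in these differences was not tested. The T cell genes Cd3e, Cd3d and Cd3g had medians of 3.8, 2.2 and 4.3 and did not pass the filter, and 2 of 13 T and NK cell markers, Cd8a and Prf1, did. Cd8a differed by -0.91 (adjusted p = 0.319 by limma) and Prf1 by -0.32 (adjusted p = 0.54), with a median of -0.62, the direction of the 9 genes. The summed signal of the 2 was 47.7 to 87.9 in the vehicle tumours, 21.8 to 60.8 at 40 mg/kg and 29.4 to 64.8 at 160 mg/kg. Of 6 B cell markers 2 were measured, Ighm at -0.48 (adjusted p = 0.134) and Blk at -0.69 (adjusted p = 0.441), with a median of -0.58. Their sum was 85.1 to 173.2 in the vehicle tumours, 67.7 to 106.6 at 40 mg/kg and 59 to 104.9 at 160 mg/kg. Of 8 dendritic cell markers 3 were measured, with a median of 0.58, the opposite direction, and Zbtb46 at 1.28 (adjusted p = 0.111). Limma called 0 genes of the T and NK, B and dendritic cell lists, with 0, 1 and 1 at an unadjusted p under 0.05, and the part of these cells in the difference from vehicle was not tested. Endothelial and fibroblast markers gave 0 calls among 8 genes each, with 0 and 1 at an unadjusted p under 0.05. Of 13 granule neuron lineage genes limma called 3 higher (Nhlh2, Neurod1 and Zic1) and 0 lower, beside 2.84% and 2.45% of all genes. The median log2 difference of these 13 was 0.02, and 6 of them lay below 0.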

How the data were processed

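Each of the 19 tumours was measured on 1 array. The deposited values are intensities on a linear scale, made by the authors with MAS5, per the submitters' processing notes. A mean signal trimmed by 2% at both ends came to 150 for each array. There were 45101 probe sets of a full-genome mouse platform, whereas the series text names a smaller array of the same family, so gene names rest on the platform annotation. Control probe sets (64) were dropped. Among the other 45037, 34945 carried 1 gene symbol, 932 several and 9160 none, and only the first kind named a gene. Batches could not be examined, because scan dates were not used here. The number of arrays limits the precision.

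Groups came from the sample descriptions. The labels do not say that tumours came from separate animals, so p-values measure only the spread between these samples. No 2 arrays were identical. Tests ran on log2(signal + 2.5), where 2.5 is the 10th percentile of all signals, a scale that understates the change of dim genes. A probe set was kept when it exceeded its array's 40th percentile on 3 or more arrays, leaving 31143 probe sets and 13454 genes. All tests used limma 3.58.1 in R 4.3.3 (lmFit and eBayes with a variance trend, 3 group means, 16 residual degrees of freedom, two-sided, Benjamini-Hochberg over all kept probe sets). The fit was tested on simulated data. Where several probe sets read a gene of a list, the one with the highest mean stood for it, and every probe set of the 9 genes is given. In each list up to 4 genes with the smallest p were named, together with the constitutive partners, Ifit1 and the 8 genes most like the 9. Some markers and the interferon genes that did not pass the filter were named as defining genes. The genes and lists were chosen with earlier results of these data known. Psme2 and Isg15 were not analysed here. Promoter windows are RefSeq sequences on GRCm38.p6, and positions count from the gene's start. Alternatives covered the scaling (quantiles, array medians), pseudocount, filter, weights of arrays, variance trend, both doses as a single group, a replicate block, each array left out, vehicle tumour 3 left out with 160 mg/kg tumour 2, the mean of a gene's probe sets and Spearman's rho. Leaving out 40 mg/kg tumours 6 and 8 together was added after seeing the data.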

Additional observations from a re-analysis of the deposited data

Results flagged for a closer look

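In 3 of 30 groups of 8 tumours examined, covering the 9 genes, the constitutive partners and Ifit1, the extreme tumour lay apart from the other 7 by more than Dixon's 95% limit, and chance alone gives about 1 in 20. The Psmb10 signal of 64.3 in 160 mg/kg tumour 2 was the lowest of its dose, and the next was 98. The signal of the second Tapbp probe set was 9.4 in 160 mg/kg tumour 4, and the next was 25.9. Psmb6 had 1951.1 in 160 mg/kg tumour 2, the highest of its dose, and the next was 1533.8.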

How the results depend on the processing

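The vehicle group of 3 tumours limits every comparison with vehicle. The 11 probe sets of the 9 genes kept their direction in both contrasts under every setting that tested them, 30 for Tap1, which a filter at the 60th percentile removed, and 31 for the others. The 8 calls of lower probe sets became 4 with array medians subtracted, 5 with both doses fitted as a single group, 4 with a replicate block, under which Irf7, Socs3, Irgm1, Gbp3, Iigp1, Herc6 and Usp18 also lost their calls, and 2 without vehicle tumour 3 and 160 mg/kg tumour 2 together. Leaving out 1 array gave 2 to 11 calls, and 2 without each of vehicle tumours 1, 2 and 3. Of all probe sets 1392 were called against vehicle (822 higher, 570 lower, 40.9% lower). With array medians subtracted 825 were higher and 199 lower (19.4% lower). Array weights gave 8907 calls (4098 higher, 4809 lower), the replicate block 819, and the fit without vehicle tumour 3 and 160 mg/kg tumour 2 gave 274. Leaving out 1 array gave 239 to 1674, with 428, 474 and 239 without vehicle tumours 1, 2 and 3. For 160 against 40 mg/kg the 0 calls became 1 without a variance trend and 6 without 40 mg/kg tumours 6 and 8, an alternative added after seeing the data, and 0 of the 11 were called under any setting. Replicate numbers did not pair the tumours: deviations of same-numbered tumours correlated at -0.128 to 0.09, and 0 of 14 pairs exceeded 0.1. Fits that leave out a tumour hold fewer samples; otherwise the cause of these changes was not tested.

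Signs turned only for genes that were not called. With quantile normalization Psma5 was -0.026. With array weights H2-DMb2 was 0.013, Ciita 0.311 and H2-Eb2 -0.226. Without vehicle tumour 3 and 160 mg/kg tumour 2, Psmb5 was -0.031, Psma3 -0.001, Psmb1 -0.025, Psma5 -0.03, H2-DMb2 0.066 and Ciita 0.46. Over the fits that leave out 1 array, the ranges were -0.759 to 0.67 for H2-Eb2, -0.017 to 0.116 for Psmb5, -0.009 to 0.221 for Psmb1, -0.014 to 0.105 for Psma5, -0.383 to 0.041 for H2-DMb2 and -0.558 to 0.37 for Ciita.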

Other observations

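Some antigen presentation genes outside the 9 differed between the doses at an unadjusted p only. H2-Eb1 and H2-Aa, class II chains that were called in neither contrast, had log2 differences of -1.10 and -0.84 between 160 and 40 mg/kg, with unadjusted p-values of 0.00346 and 0.0492 by limma. They were the 2 class II genes under 0.05 there and were chosen after their values were seen. Cxcl9, a chemokine that interferon-gamma induces, had a log2 difference of -1.34 between 160 and 40 mg/kg, with an unadjusted p of 0.00884 by limma, and was chosen in the same way.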
